A study of Homo sapiens with 36 samples.

Results

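CPSF6 and RNPS1 are a pair of nuclear RNA-binding proteins with arginine-serine-rich (SR-like) regions, and their binding was compared window by window in HEK293T, a human embryonic kidney cell line. The binding data came from eCLIP, in which proteins are crosslinked to RNA in living cells, immunoprecipitated (IP) and the attached RNA fragments sequenced beside a size-matched input. The authors deposited, for each protein, a list of genomic windows of at most 100 nt whose IP reads exceeded the input in both replicates. The 2 lists were joined on the window number, and each window fell into 1 of 3 sets: listed for both proteins, for CPSF6 only or for RNPS1 only. Either list held 220736 windows, of the 601384 distinct windows that the 9 proteins of the series have in all. Of these, 87527 were shared (39.7%), 68006 were CPSF6-only (30.8%) and 65203 were RNPS1-only (29.5%). Each protein had 2 IP and 2 input libraries from untreated cells grown in 10 cm dishes, and the antibody was either specific to the protein or directed at a V5 tag, with no statement of which was used for CPSF6 or RNPS1. The labels do not say whether the replicates came from separate cultures.

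CPSF6 is a subunit of cleavage factor I (CFIm), which binds UGUA elements upstream of poly(A) sites through its partner CPSF5 (NUDT21) and promotes the use of those sites; its C-terminal SR-like domain contacts other processing factors and the importin TNPO3. RNPS1 is a splicing regulator that joins the exon junction complex, which is deposited upstream of exon-exon junctions during splicing, and forms the ASAP and PSAP complexes with SAP18 and either acinus (ACIN1) or pinin (PNN). Many SR proteins bind purine-rich exonic elements. The SR-like regions themselves are background knowledge, and nothing in the deposited lists measures them.

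Sequences of listed windows could be read for the 1457 windows that lie inside a RefSeq promoter segment around a gene start (GRCh38.p14), and the GC content from the sequence equalled the deposited GC content within 0.001 for 100% of them. For each set, the 3 coding windows with the highest log2 enrichment in the weaker replicate (for shared windows, the lower of the proteins) are shown, 1 per gene, among those of at least 60 nt with at least 20 IP reads and a sequence printable here, since coding exons hold most of the shared windows and most of the differences described here. Each is written on its gene's strand, with purine runs of at least 6 bases in capitals.

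Shared, UPF3A, chr13:114291634-114291712, plus strand: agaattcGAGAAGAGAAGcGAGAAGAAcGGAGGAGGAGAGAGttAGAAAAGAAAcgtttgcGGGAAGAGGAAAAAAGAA

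Shared, ERC1, chr12:1236769-1236836, plus strand: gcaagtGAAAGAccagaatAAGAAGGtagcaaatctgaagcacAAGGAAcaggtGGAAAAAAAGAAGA

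Shared, ACBD6, chr1:180430180-180430262, minus strand: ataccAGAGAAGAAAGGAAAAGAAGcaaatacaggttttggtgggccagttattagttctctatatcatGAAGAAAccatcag

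CPSF6-only, CDV3, chr3:133574215-133574284, plus strand: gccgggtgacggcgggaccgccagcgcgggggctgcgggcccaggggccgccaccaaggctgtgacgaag

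CPSF6-only, PHF2, chr9:93667160-93667240, plus strand: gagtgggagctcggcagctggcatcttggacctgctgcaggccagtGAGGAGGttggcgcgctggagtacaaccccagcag

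CPSF6-only, DTNA, chr18:34818164-34818246, plus strand: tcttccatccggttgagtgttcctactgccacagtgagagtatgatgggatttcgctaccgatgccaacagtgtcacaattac

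RNPS1-only, VPS11, chr11:119067924-119068010, plus strand: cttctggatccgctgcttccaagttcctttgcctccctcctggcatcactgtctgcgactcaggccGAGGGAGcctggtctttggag

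RNPS1-only, TLE4, chr9:79612656-79612718, plus strand: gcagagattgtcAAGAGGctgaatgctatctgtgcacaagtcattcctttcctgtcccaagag

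RNPS1-only, ACIN1, chr14:23095113-23095186, minus strand: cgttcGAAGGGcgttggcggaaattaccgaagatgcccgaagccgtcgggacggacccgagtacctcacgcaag

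The UPF3A window, in a gene for a nonsense-mediated decay factor, held 115 CPSF6 IP reads against 3 input reads and 56 RNPS1 IP reads against 2 input reads. It was 84.8% purine, with a longest uninterrupted purine run of 18 bases; the ERC1 and ACBD6 windows had runs of 14 and 20 bases. The printed windows of 1 protein had no run longer than 7. That contrast holds for the printed windows only. They lead among the coding windows whose sequence could be read, not in the full lists, where other coding windows were more enriched. Over all coding windows of at least 60 nt with a sequence, the median purine content was 55.3% in 28 shared windows, 53.0% in 9 CPSF6-only windows and 54.5% in 23 RNPS1-only windows. A purine run of at least 10 bases occurred in 7, 3 and 5 of them. The ACIN1 window, in the gene for RNPS1's own ASAP partner, had 71 RNPS1 IP reads and 2 input reads.

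The letters TGTA (UGUA in RNA) were searched on the gene's strand in the 90 nt from the start of a window. Only part of the windows with a sequence were searched: 137 of 319 CPSF6-only, 127 of 621 RNPS1-only and 118 of 517 shared windows. TGTA occurred in 27 CPSF6-only windows (19.7%, 95% Wilson interval 13.9 to 27.2%), 14 RNPS1-only windows (11%, 6.68 to 17.7%) and 10 shared windows (8.47%, 4.67 to 14.9%). Of all 90-nt pieces of the promoter segments, 15.9% held it, which lies inside the CPSF6-only and RNPS1-only intervals and above the shared one. On the opposite strand the shares were 9.49%, 9.45% and 11%. GAAGAA, an exonic enhancer-like hexamer, occurred in 9.32% of shared, 3.65% of CPSF6-only and 2.36% of RNPS1-only windows against 3.16% of all pieces. The intervals overlapped among the 3 sets; that of the shared windows (5.29 to 15.9%) lay above the share of all pieces, and those of the CPSF6-only windows (1.57 to 8.26%) and the RNPS1-only windows (0.81 to 6.72%) included it. Of all 1457 windows with a sequence, searched or not, 64.9% were 5' UTR windows, so these shares describe the starts of genes.

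The shared windows carried most of the reads of both lists. They held 76.8% of the 8891672 CPSF6 IP reads in listed windows and 71.0% of the 8815128 RNPS1 IP reads. The CPSF6 list had 155533 windows, of which 56.3% were shared, and the RNPS1 list had 152730, of which 57.3% were shared. A shared window had a median of 42 CPSF6 IP reads, against 22 in a CPSF6-only window; in the RNPS1 list the medians were 35 and 22. Among windows of the 7 other proteins' lists, 10.2% were listed for CPSF6, 11.2% for RNPS1 and 7.04% for both. Counts are sums over the replicates, so no test over samples can be made for any comparison here, and all intervals cover counting error only and are too narrow because neighbouring windows are not independent.

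RNPS1 enrichment was higher where CPSF6 was also listed, whereas for CPSF6 the difference was small and its sign varied with the feature. On the authors' log2 odds ratio of IP over input, taken in the weaker replicate, the RNPS1 median was 3.12 in shared and 2.64 in RNPS1-only windows, a difference of 0.48 (0.45 to 0.49 from the medians' intervals). For CPSF6 the medians were 2.49 and 2.53, a difference of -0.04 (-0.06 to -0.02), and it turned to 0.06 over coding windows alone. In deep introns the CPSF6 medians were 2.86 in shared and 2.77 in CPSF6-only windows. Over the shared windows the Spearman correlation between the proteins was 0.738 for IP reads, 0.603 for input reads and 0.264 for the log2 odds ratio; the reads share transcript abundance and window length. A window missing from a list is not thereby unbound. RNPS1 windows had a median of 2 input reads and CPSF6 windows 5, and with at least 5 input reads required the sets became 23329 shared, 55067 CPSF6-only and 10750 RNPS1-only.

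The sets differed in the parts of genes they covered. Coding sequence made up 67.2% of shared windows and 58.0% of RNPS1-only windows, but 19.5% of CPSF6-only windows. Deep introns, the intronic windows away from splice sites, made up 45.9% of CPSF6-only windows, against 5.84% of shared and 5.59% of RNPS1-only windows; with each gene weighted equally the CPSF6-only share was 19.7%. 3' UTRs gave 11.1% of CPSF6-only windows and 4.28% and 4.24% of the shared and RNPS1-only sets. 5' UTRs gave 5.44% of RNPS1-only, 4.10% of shared and 3.08% of CPSF6-only windows.

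Read the other way, each feature type had its own split. Of 109840 coding windows, 53.5% were shared, 34.4% RNPS1-only and 12.1% CPSF6-only. Of 39969 deep intron windows, 78.1% were CPSF6-only and 12.8% shared. Of 14047 3' UTR windows, 53.6% were CPSF6-only and 26.7% shared. Introns short enough for 1 window to lie near both splice sites went the other way: of 2226 windows proximal to both sites, 53.7% were RNPS1-only and 23.9% CPSF6-only, and of 1393 adjacent to both, 47.7% and 25%. The windows next to 3' splice sites of longer introns were nearly even, with 36.3% RNPS1-only, 34.9% CPSF6-only and 28.8% shared.

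**Figure D1:**
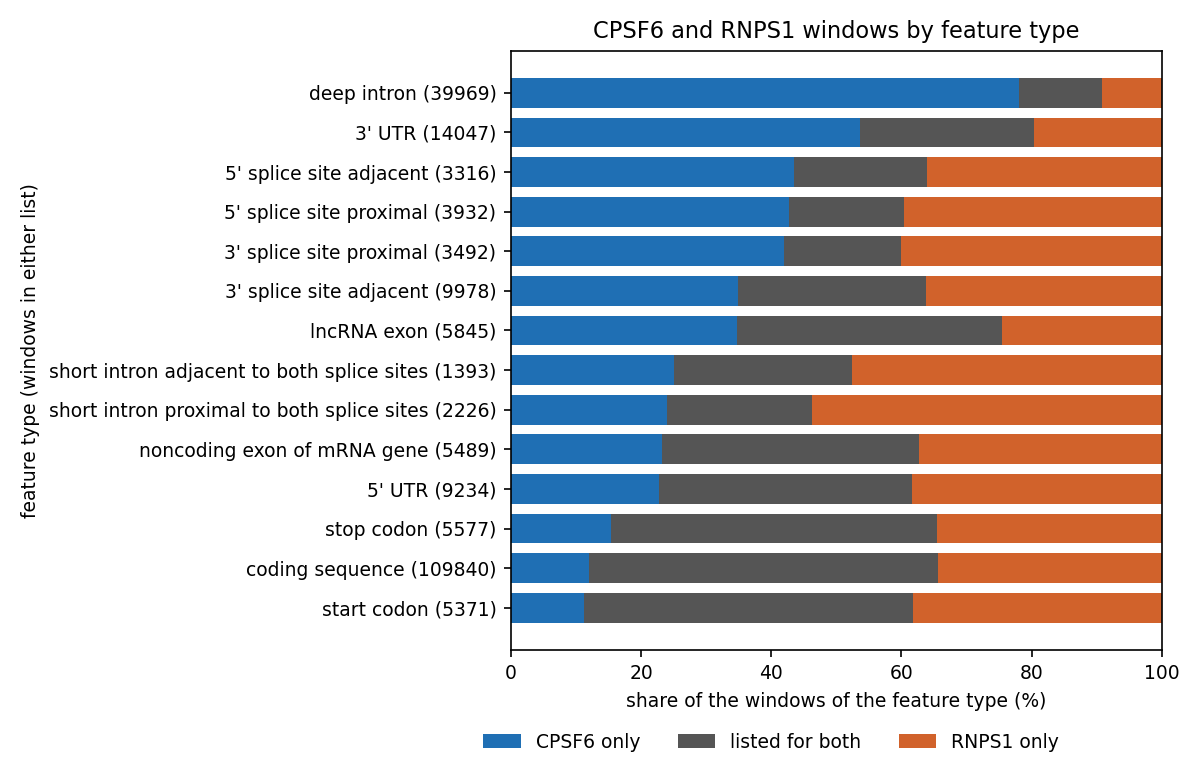
Bars give the share (%) of windows listed for CPSF6 only (blue), both proteins (grey) and RNPS1 only (orange) in each feature type with at least 1000 windows, and the number in brackets is the windows of that type in either list. Deep introns and 3' UTRs are mostly blue, orange is the widest part in short introns, and coding, start and stop codon windows have the widest grey bars.

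Mitochondrially encoded transcripts, which have no introns, had 55 shared, 32 RNPS1-only and 0 CPSF6-only windows. These were 63.2%, 36.8% and 0%, against 39.7%, 29.5% and 30.8% of all windows in either list. Of their 59 coding windows, 57.6% were shared and 42.4% RNPS1-only, against 53.5% and 34.4% of all coding windows, of which 12.1% were CPSF6-only. pri-miRNA windows were 56.5% CPSF6-only (39 of 69), with 19 shared and 11 RNPS1-only. Single-gene counts in multicopy families depend on how the authors assigned reads.

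Coding windows of CPSF6 only and of RNPS1 only lay in exons of different size. An exon's number of windows could be read from the authors' running window numbers where the following feature was also listed, for 26725 coding windows (24.3%) in 13346 exons of 5086 genes. In exons of 1 or 2 windows, the usual size of an internal exon, 4.83% of windows were CPSF6-only (4.50 to 5.18%) and 35.8% RNPS1-only (35.1 to 36.6%). In exons of more than 10 windows, roughly a kilobase or longer, 33.9% were CPSF6-only (32.5 to 35.4%) and 8.28% RNPS1-only (7.48 to 9.15%). The shared fraction was 59.4% in the short and 57.8% in the long exons.

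The crossing was gradual. CPSF6-only windows were 6.07% of windows in exons of 1 window, 4.29% at 2, 5.88% at 3, 12.8% at 4 to 5 and 19.3% at 6 to 10. They reached 29.3% at 11 to 20 windows and 40.7% at 21 to 50, and were 36.8% in the 6 exons above 50 windows. RNPS1-only windows fell from 36.1% at 2 windows to 27.0% at 4 to 5, 19.2% at 6 to 10, 12% at 11 to 20, 4.32% at 21 to 50 and 0.270% above 50. In exons of 6 to 10 windows the shares of the 2 proteins were close, with overlapping intervals.

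Read numbers in the shared windows moved with exon size too. The division into sets does not fix these numbers, but they come only from windows called for both proteins and are not independent of those calls. The median ratio of CPSF6 to RNPS1 IP reads was 0.959 in exons of 1 window, 0.921 at 2, 1.07 at 4 to 5, 1.35 at 6 to 10, 1.82 at 11 to 20, 2.73 at 21 to 50 and 3.08 above 50. The same ratio for input reads, with 1 added to each count, was 2.00, 2.00, 2.00, 1.92, 2.00, 2.43 and 2.69. From short to long exons the IP ratio thus went from 0.934 to 2.18, while the input ratio went from 2.00 to 2.22. Total library sizes were not used here, so the level of a ratio has no meaning by itself and only its change between exon sizes is described.

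**Figure D2:**
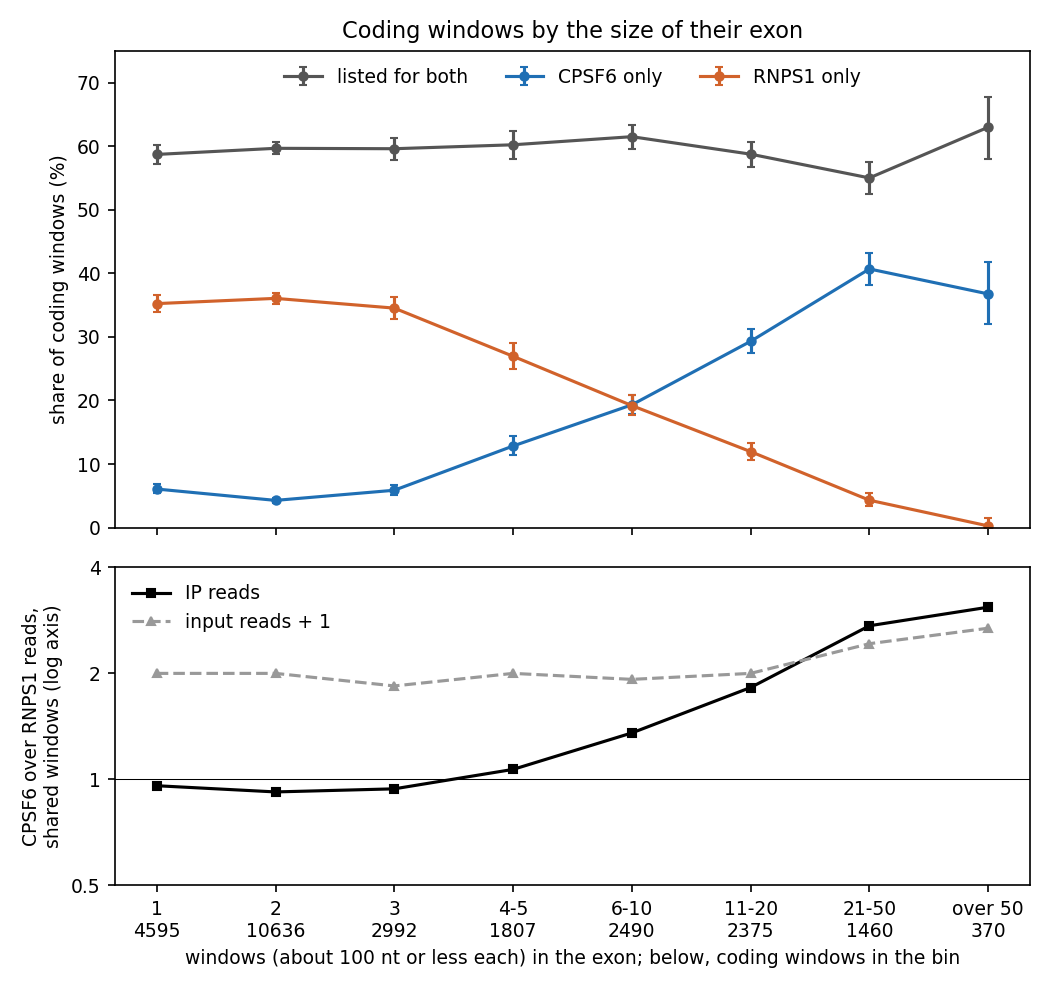
Upper panel: share (%) of coding windows listed for both proteins, CPSF6 only and RNPS1 only, by the number of windows in the exon, with 95% Wilson intervals. Lower panel: median ratio of CPSF6 to RNPS1 reads in shared windows on a log axis, for IP and input; the CPSF6-only and RNPS1-only lines cross at 6 to 10 windows, and the IP ratio climbs from 0.921 at 2 windows to 3.08 above 50 while the input ratio stays between 1.84 and 2.69.

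GC content differed between the sets as well, with medians of 43.0% in CPSF6-only, 46.9% in shared and 52.7% in RNPS1-only windows. The order was the same within coding sequence (44.9%, 46.2% and 52.2%), deep introns (40.4%, 44.0% and 48.0%) and 3' UTRs (41.7%, 46.5% and 51.2%). 5' UTRs departed from it: the median was 68.6% in CPSF6-only, 64.0% in RNPS1-only and 57.3% in shared windows. Start codon windows did too, with medians of 60%, 59% and 52.6% in the same order of sets. Across all coding windows, RNPS1-only windows rose from 17.4% of those with at most 35% GC to 57.0% of those above 60%, whereas CPSF6-only windows were 21.3% at the low end, 7.61% at 55 to 60% GC and 14.4% above 60%.

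The exon size contrast was present at every GC level. In windows with 45 to 50% GC, 28.6% were CPSF6-only in long exons and 3.71% in short exons; the RNPS1-only shares were 4.87% and 25.8%. In windows with at most 35% GC, CPSF6-only windows were 43.9% in long and 9.66% in short exons. Above 60% GC they were 46.3% and 6.59%, and RNPS1-only windows were 19.4% and 62.5%. The 45 to 50% GC windows of long exons were 66.6% shared and those of short exons 70.5% shared.

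**Figure D3:**
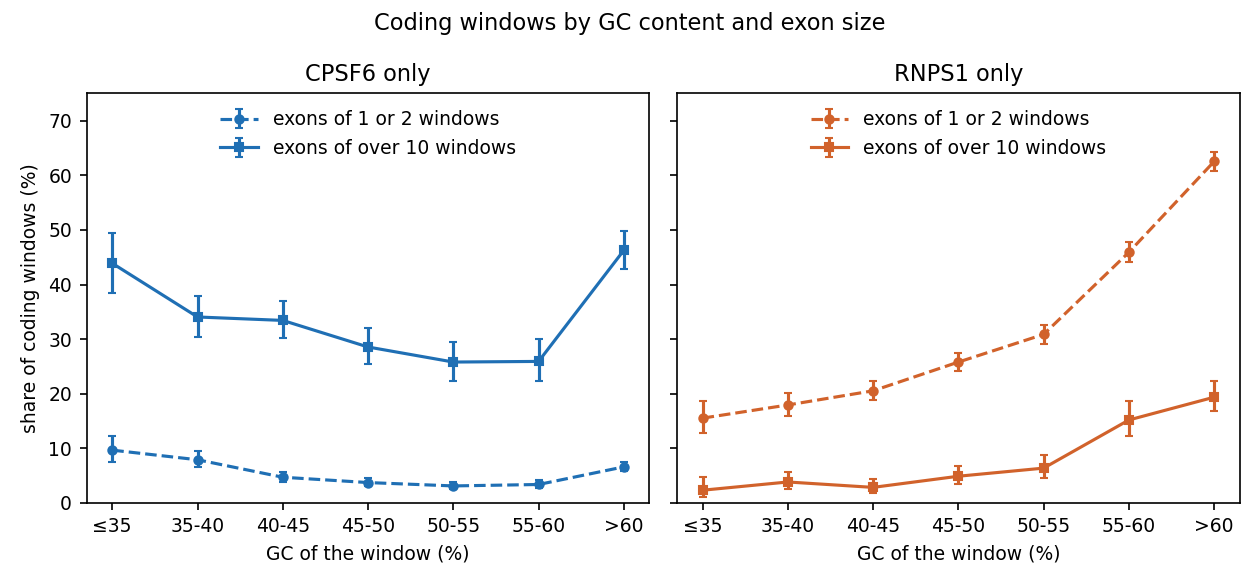
Share (%) of coding windows that are CPSF6-only (left) and RNPS1-only (right) by the GC content of the window, for exons of 1 or 2 windows (dashed) and of over 10 windows (solid), with 95% Wilson intervals. In all 7 GC bins the solid line is above the dashed line on the left and below it on the right.

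The contrast was also seen inside single genes. Of 55 genes with at least 3 windows in short and 3 in long exons, the CPSF6-only share was higher in the long exon in 36, lower in 10 and equal in 9, with a median difference of 10.0 percentage points. The RNPS1-only share was lower in the long exon in 35, higher in 4 and equal in 16, with a median difference of -11.9 points. Counted by exon, 227 of 326 long exons (69.6%) had more CPSF6-only than RNPS1-only windows and 58 (17.8%) had more RNPS1-only windows. Among 10767 short exons, 5.50% had more CPSF6-only and 42.4% more RNPS1-only windows.

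Within long exons pooled over all sizes, the windows at the exon ends differed from the middle. An exon has a single first and a single last window, but longer exons give more middle windows. Position thus cannot be told apart from exon size here. In exons of 11 to 20 windows, which were 249 of the 326 long exons, 12% of all coding windows were RNPS1-only and 29.3% CPSF6-only. RNPS1-only windows were 15.2% of the last windows (32 of 211, 11 to 20.6%) and 11.3% of the first windows (27 of 238), against 6.79% of windows at least 4 from either end (5.93 to 7.77%). CPSF6-only windows were 26.1% of the last, 26.5% of the first and 36.4% of the middle windows. The windows with a start or stop codon are a feature type of their own and are not part of these exons.

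Some of the longest exons were listed for both proteins along nearly their whole length, and in others CPSF6-only windows were the larger set. The exon of MKI67, the proliferation marker Ki-67, had 69 windows, of which 65 were shared and 0 belonged to either protein alone; CPSF6 IP reads in them had a median of 424 and RNPS1 IP reads of 180. AKAP12, a scaffold for protein kinase A, had 48 shared windows of 50, with 1 CPSF6-only and 1 RNPS1-only. SPEN, a transcriptional repressor that works with Xist, had 58 shared and 15 CPSF6-only windows of 82, and its CPSF6-only windows lay in the 3' portion of the exon. ANKRD11, a chromatin regulator, had 49 shared and 14 CPSF6-only windows of 66.

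ZNF292, a zinc-finger gene, had 27 shared and 42 CPSF6-only windows of 71, and ZDBF2, an imprinted gene, had 18 and 35 of 68. ASPM, which acts at the mitotic spindle poles, had 30 and 18 of 48. TCF20, a transcriptional coregulator, had 16 shared, 30 CPSF6-only and 1 RNPS1-only of 56. In the shared windows the median ratio of CPSF6 to RNPS1 IP reads was 2.27 in MKI67, 2.26 in AKAP12, 4.37 in SPEN, 4.18 in ZNF292 and 5.31 in ASPM. Of the 40 long exons with the most listed windows, 30 had no RNPS1-only window and 37 had more CPSF6-only than RNPS1-only windows.

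**Figure D4:**
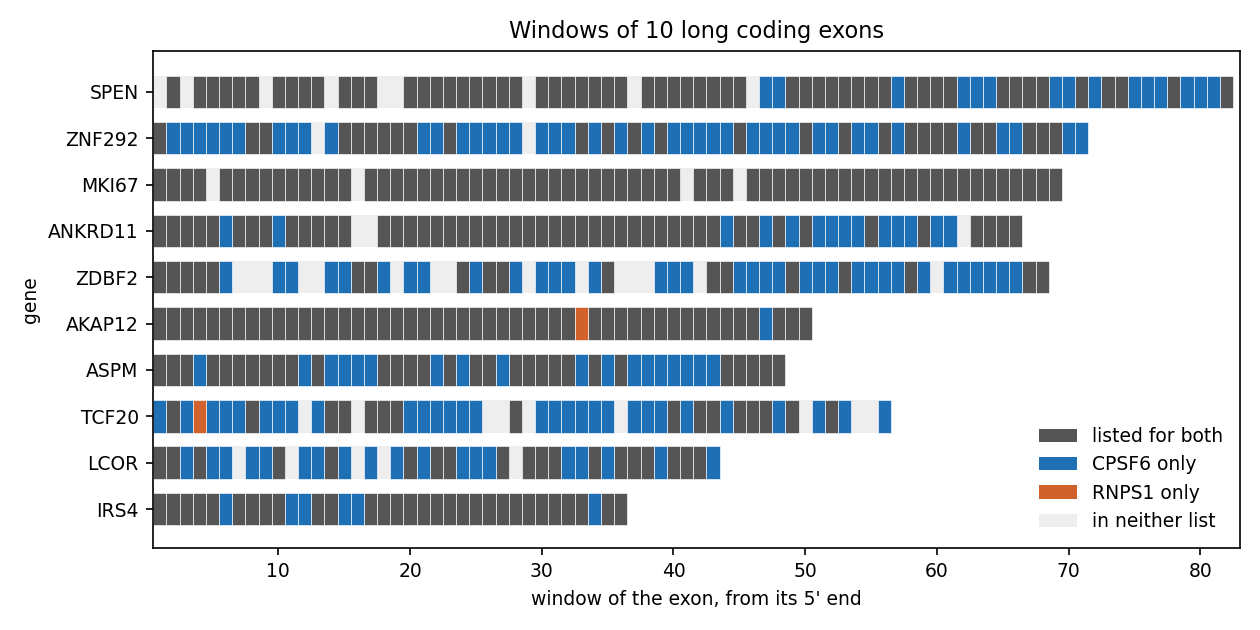
Each row is the coding exon of 1 gene, from its 5' end, and each cell is 1 window: listed for both proteins (grey), CPSF6 only (blue), RNPS1 only (orange) or in neither list (pale). MKI67 has no window of 1 protein alone, ZNF292 has 42 CPSF6-only windows, and AKAP12 and TCF20 have 1 RNPS1-only window each.

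The other lists gave a view of exon size in which the counted windows were chosen by the 7 other proteins. Exon sizes still came from the lists of all 9 proteins, so the exons of known size depend in part on CPSF6 and RNPS1. Of the coding windows in the lists of the 7 other proteins, 52.1% were also listed for CPSF6 and 67.4% for RNPS1. Among those in exons of 2 windows, CPSF6 was listed in 56.5% (55.1 to 58.0%) and RNPS1 in 79.1% (77.9 to 80.3%). In exons of 21 to 50 windows CPSF6 was listed in 77.0% (74.0 to 79.8%) and RNPS1 in 54.0% (50.6 to 57.5%). Of each protein's own coding windows in exons of known size, 20.4% lay in long exons for CPSF6 and 11.7% for RNPS1.

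RBM22, a spliceosomal protein, had the highest such share of the 9 proteins, 64.0%, and most of its coding windows were also listed for CPSF6. Of 2417 RBM22 coding windows, 85.2% were shared by CPSF6 and RNPS1, 12.6% were CPSF6-only and 0.786% RNPS1-only. Of 1683 RBM22 deep intron windows, 58.0% were CPSF6-only and 1.01% RNPS1-only. The translation factor EIF4B and the splicing regulator MBNL2 had more RNPS1-only than CPSF6-only windows among their coding windows, as did coding windows as a whole: 6.35% of EIF4B coding windows were CPSF6-only and 18.9% RNPS1-only, and for MBNL2 the shares were 5.95% and 24.8%. CPSF5, the CFIm partner of CPSF6, had 30615 3' UTR windows, of which 7.36% were CPSF6-only, 2.36% shared and 1.5% RNPS1-only. The CPSF6-only share of 3' UTR windows was higher for RBM22 (35.9%), RBM10 (16.6%), EIF4B (13.7%), LGALS3 (10.4%) and MBNL2 (10.2%), and lower for GRB2 (1.77%). As a share of its own 3' UTR windows, the CPSF5 overlap was thus not larger than that of most other proteins. Counted over the CPSF6-only 3' UTR windows, it was the largest: 29.9% were in the CPSF5 list, against 11.5% for MBNL2 and 9.17% for EIF4B. CPSF5 also held 19.3% of shared and 16.6% of RNPS1-only 3' UTR windows, and its 3' UTR list was the longest. Most CPSF6-only windows, 79.6%, were in no other protein's list; the share was 71.5% for RNPS1-only and 64.3% for shared windows.

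Outside coding sequence, the sets varied with distance from the stop codon and with intron size. In 3' UTRs of plus-strand genes, whose windows are numbered from the stop codon, CPSF6-only windows rose from 32.2% of the first windows to 42.7% of the second, 62.6% of windows 6 to 10, 75.2% of windows 21 to 50 and 84.9% beyond 50. RNPS1-only windows fell from 29.7% to 24.7%, 15.7%, 7.76% and 3.31%, and shared windows from 38.1% to 32.6%, 21.7%, 17% and 11.7%. The median GC content fell along the same windows from 47.5% to 38.2%. In introns of known size, CPSF6-only windows were 36.3% of deep windows in introns of 6 to 10 such windows, 43.3% at 11 to 20, 60.3% at 21 to 50 and 75.6% above 50, while RNPS1-only windows were 40.1%, 29.6%, 17.5% and 7.38%. Median GC there fell from 52.7% to 42.0%, and the part of GC in these trends was not tested.

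Windows of a single protein stood alone more often than shared ones. No neighbouring window was in either list for 36.6% of CPSF6-only, 38.3% of RNPS1-only and 20.9% of shared windows. In deep introns, 54.6% of RNPS1-only windows were isolated, against 37.2% of CPSF6-only windows.

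At the level of genes the lists nearly coincided. Of 11208 genes with a window of any of the 9 proteins, 84.9% had a CPSF6 window, 87.7% an RNPS1 window and 80.9% both. Of 10273 genes with a window of either protein, 9071 had windows of both and 8444 had a shared window, while 439 had CPSF6 windows alone and 763 RNPS1 windows alone. The genes with 1 protein alone had few windows, with medians of 1 and 2. FAM160A1 and ZNF155, with 24 CPSF6 windows each, and ATRNL1, with 23, had the most without an RNPS1 window, and FCSK with 16, HECTD3 with 15 and CAP1 and HLA-F with 12 each had the most RNPS1 windows without a CPSF6 window. Accordingly, 98.3% of CPSF6-only windows lay in genes that also had an RNPS1 window, and 97.4% of RNPS1-only windows in genes with a CPSF6 window. More CPSF6-only than RNPS1-only windows were found in 35.4% of genes, and the reverse in 56.7%.

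The genes with the most shared windows were MYCBP2, a ubiquitin ligase, with 140, DST, a cytoskeletal linker, with 136, HUWE1, another ubiquitin ligase, with 133, MACF1 with 129, PRKDC, the catalytic subunit of DNA-dependent protein kinase, with 124, and PCNT with 123. Counting coding windows, the largest CPSF6-only excess was in DST (114 CPSF6-only, 6 RNPS1-only, 130 shared), followed by BRCA2 (52, 1 and 23), ANKRD12 (48, 0 and 7), SYNE2 (63, 17 and 118), APC (46, 2 and 26) and HIVEP1 (42, 0 and 17). BRCA2 repairs DNA breaks, APC restrains Wnt signalling, and both are known for a very long internal or last exon. The largest RNPS1-only excess was in FASN, the fatty acid synthase (0 CPSF6-only, 73 RNPS1-only, 2 shared), then MDN1 (13, 70 and 95), SBF1 (1, 53 and 5), PIEZO1, a mechanosensitive channel (1, 50 and 24), GCN1 (1, 43 and 29) and FLNA (1, 41 and 10).

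The groups behind these names differed in sequence and exon structure. The 50 genes with the largest coding CPSF6-only excess had a median coding GC content of 40.9%, and 47 of them (94.0%) had a coding exon with a window numbered above 10. The 50 with the largest RNPS1-only excess had a median of 56.9%, and 7 (14%) had such an exon. Over all 3785 genes with at least 10 coding windows the median was 47.7% and the share 15.9%. The genes were picked by their window counts, so these are descriptions.

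**Figure D5:**
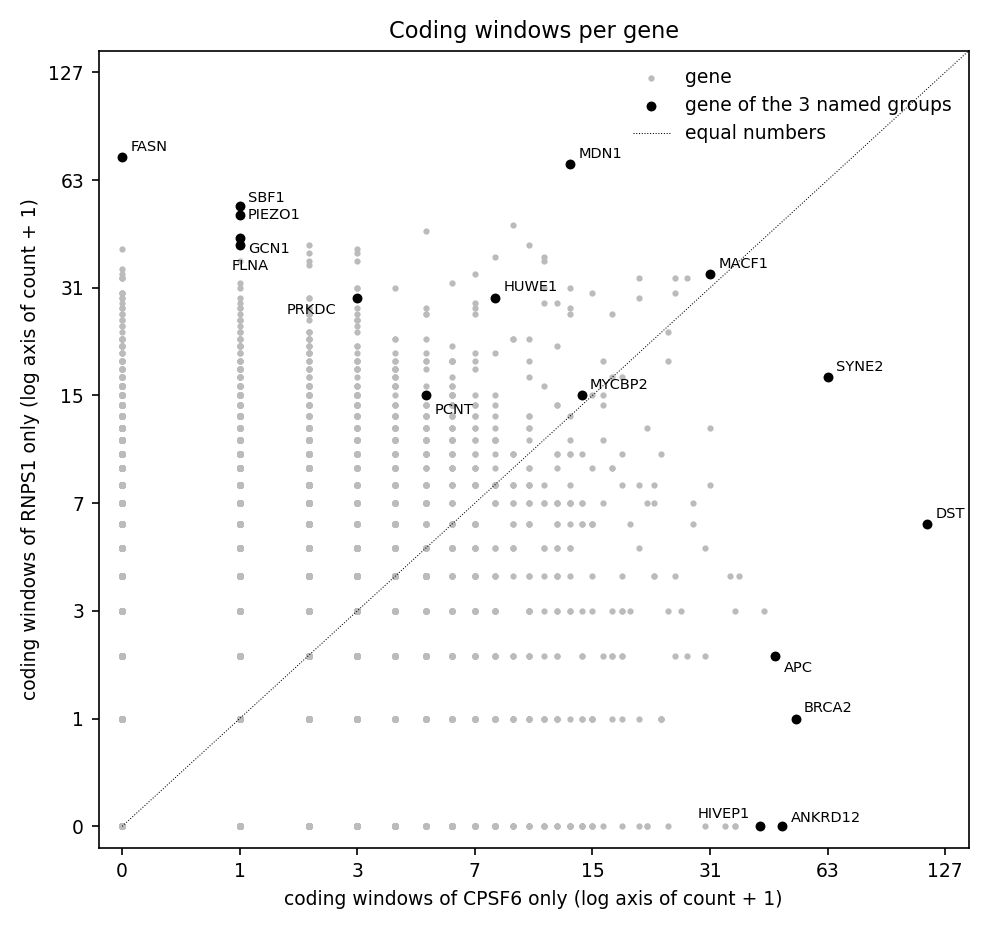
Each point is a gene, placed by its coding windows of CPSF6 only (horizontal) and RNPS1 only (vertical) on log axes of the count plus 1; the dotted line marks equal numbers and black points are the 6 genes with the most shared windows and the 6 with the largest coding excess of either protein. DST lies at 114 and 6, BRCA2 at 52 and 1, FASN at 0 and 73, and MYCBP2 close to the line at 14 and 15.

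With introns included, the largest CPSF6-only excess was in DOCK3 (309 CPSF6-only windows, 291 of them in deep introns), SPIDR (244 and 239), GPHN (231 and 228), FHIT (212 and 212), DNAH14 (206 and 194) and FAF1 (194 and 191), all long genes. FHIT had 5 RNPS1-only and 15 shared windows. For RNPS1, FASN, SBF1, SCRIB, INTS1, MDN1 and MAN2C1 led, with 114, 75, 74, 74, 81 and 63 RNPS1-only windows.

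The single windows with the highest enrichment in the weaker replicate came from several feature types. Among shared windows with at least 20 IP reads and 1 input read in each table, the leader was a coding window of NCOR1, a nuclear receptor corepressor, with 550 CPSF6 IP and 12 input reads and 145 RNPS1 IP and 4 input reads; its GC content was 28.1%. Coding windows of UPF3B (396 and 13 for CPSF6, 265 and 5 for RNPS1) and of U2SURP, a U2 snRNP-associated SR protein (1155 and 56, 484 and 24), were among the next. Of the leading 6 CPSF6-only windows, 4 were in deep introns, headed by PRKCA with 874 IP and 2 input reads. The 3' UTR window of ZKSCAN8 (201 and 3) and the intronic window of STAG2 (141 and 3) were also listed for CPSF5. RNPS1-only leaders were a coding window of PSPC1, a paraspeckle protein (205 IP, 2 input), and an intronic window of BTBD2 (450 and 1) that was also listed for 4 other proteins.

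RBM18, which encodes a small RNA-binding protein, had a pattern of its own in the CPSF6 list. Its 6 coding windows were CPSF6-only, and 5 of them held 341, 413, 500, 554 and 535 IP reads against 0, 3, 0, 0 and 2 input reads; the sixth, of 13 nt, held 132 against 0. Its start codon window had 875 CPSF6 IP reads and 2 input reads beside 30 RNPS1 IP reads, and its stop codon window 261 and 4 beside 19. The windows next to its 3' splice sites held 17, 25 and 37 IP reads. No cause of this pattern was tested.

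Windows in the proteins' own genes differed in read depth. The CPSF6 gene had 32 shared, 37 CPSF6-only and 5 RNPS1-only windows, and its coding windows were 15 shared and 5 RNPS1-only. The RNPS1 gene had 14 shared, 1 CPSF6-only and 14 RNPS1-only windows. Its 5 shared coding windows held 26431 to 80729 RNPS1 IP reads and 1301 to 3469 RNPS1 input reads, against 42 to 200 CPSF6 IP reads and 7 to 28 CPSF6 input reads. The input of the RNPS1 experiment was also high over these exons, and the cause was not tested. The start codon window of the CPSF6 gene, in comparison, held 171 CPSF6 IP and 23 input reads, and 281 RNPS1 IP and 13 input reads.

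Genes for SR proteins and for the partners of both proteins carried windows of both. The counts of genes that follow are read against all genes with windows of either protein, of which 56.7% had more RNPS1-only and 35.4% more CPSF6-only windows. All 34 genes for SR and SR-related proteins had windows of both proteins, where 80.9% of all genes in the lists do, and their coding windows were 83.1% shared, against 53.5% overall. By gene, 21 of the 34 had more CPSF6-only and 11 more RNPS1-only windows over all feature types. This excess lay outside coding sequence, since 46 of their 393 CPSF6-only and 61 of their 240 RNPS1-only windows were coding. Their coding windows were 7.24% CPSF6-only and 9.61% RNPS1-only, against 12.1% and 34.4% of all coding windows. SON had 82 shared windows, SRRM2 had 72, SRRM1 had 50 and LUC7L3 had 46. RSRC1 had 66 CPSF6-only windows beside 17 shared ones. Of 17 genes of the exon junction complex and its partners, 11 had more RNPS1-only and 5 more CPSF6-only windows; their coding windows were 77.2% shared, and ACIN1 alone had 51 shared windows.

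The 20 genes for cleavage and polyadenylation factors, all with windows of both proteins, had 65.5% of coding windows shared; 12 had more RNPS1-only and 7 more CPSF6-only windows. PCF11 had 44 shared, 21 CPSF6-only and 2 RNPS1-only windows, and CPSF1 had 31, 6 and 44. Of 11 SR kinase and importin genes, 7 had more RNPS1-only and 3 more CPSF6-only windows, near the shares of all genes. TNPO3, the importin that carries CPSF6, had 8 shared, 6 CPSF6-only and 21 RNPS1-only windows. Of the 11 listed nonsense-mediated decay factors, 9 had more RNPS1-only and 1 more CPSF6-only windows, beside 56.7% and 35.4% of all genes. They included SMG1, with 68 shared, 13 CPSF6-only and 33 RNPS1-only windows.

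Several other gene classes, some of them defined by structure, were compared in the same way. Of 79 cytosolic ribosomal protein genes, 69 had more RNPS1-only and 5 more CPSF6-only windows, where 56.7% and 35.4% of all genes did. Their coding windows were 1.32% CPSF6-only and 37.0% RNPS1-only, against 12.1% and 34.4% of all coding windows. Their RNPS1-only share of coding windows was thus near that of all coding windows. ZNF genes, which typically encode their zinc fingers in 1 long last exon, leaned towards CPSF6. Of 313 such genes, 185 had more CPSF6-only and 76 more RNPS1-only windows, and 27 had no window of either protein. Their coding windows were 35.8% CPSF6-only and 20.4% RNPS1-only, against 12.1% and 34.4% of all coding windows. Intronless genes other than histones had 25% of coding windows CPSF6-only and 11.2% RNPS1-only, against the same 12.1% and 34.4%. Of the 30 genes listed for any protein, 27 had a CPSF6 window, and the 25 with an RNPS1 window were all among them. Of these 27 genes, 19 had more CPSF6-only and 6 more RNPS1-only windows. SOX4, a transcription factor without introns, had 9 shared, 25 CPSF6-only and 0 RNPS1-only windows.

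Replication-dependent histone genes also lack introns but had few CPSF6-only windows, 9 of 177. Of 47 genes listed for any protein, 41 had an RNPS1 window, and the 35 with a CPSF6 window were all among them. Of these 41 genes, 29 had more RNPS1-only and 1 more CPSF6-only windows. The shares of all genes with windows of either protein were 56.7% and 35.4%. Histone coding windows were 62.2% shared, 37.8% RNPS1-only and 0% CPSF6-only (0 of 74), against 53.5%, 34.4% and 12.1% of all coding windows. The RNPS1-only share of coding windows was thus near that of all coding windows, whereas the gene count was above the share of all genes. Histone coding sequences are short and GC-rich and nearly identical among copies, so reads may be split between them. Among reported CFIm targets, 7 of 11 listed genes had more CPSF6-only windows and 3 more RNPS1-only, beside 35.4% and 56.7% of all genes.

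Some RNPS1-only windows in short introns coincided with microRNA hairpins that fill the intron. Of 13 short-intron windows adjacent to both splice sites that overlap a RefSeq hairpin (GRCh38.p14), 8 were RNPS1-only, 4 shared and 1 CPSF6-only, while all such windows were 47.7% RNPS1-only. In 2 of them the hairpin and the intron window had the same start and end, and the hairpin began with GU and ended with AG, the bases that mark an intron's ends, shown in capitals.

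MIR3620, in ARF1, chr1:228097263-228097341, plus strand: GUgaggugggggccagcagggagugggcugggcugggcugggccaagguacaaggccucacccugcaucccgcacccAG

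MIR6765, in JAG2, chr14:105150778-105150864, minus strand: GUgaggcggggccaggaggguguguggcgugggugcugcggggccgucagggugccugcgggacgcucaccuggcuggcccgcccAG

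The ARF1 intron had 46 RNPS1 IP reads and 2 input reads, with log2 odds ratios of 1.58 and 5.28 in the replicates, a wide gap. The JAG2 intron had 26 and 0, with 3.81 and 4.53. Small RNA exon windows formed 18 pairs with hairpins, in which the CPSF6-only window at chr20:63919505-63919576 was counted for both MIR941-1 and MIR941-3. Of these pairs 13 were CPSF6-only, where 23.3% of all small RNA exon windows were (21 of 90). Of 16 deep intron windows with a hairpin 10 were, a smaller share than the 78.1% of all deep intron windows. CPSF6-only windows with a hairpin included MIR222 in its host transcript MIR222HG, with 117 and 89 IP reads against 15 and 12 input reads in neighbouring windows.

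Marker genes were looked up in the lists, which hold windows enriched over input and do not measure expression. The identity of the line was therefore not tested. Of 8 genes chosen to mark HEK293T cells, 5 had windows in the series, and VIM, HOXA9 and NEFL were among those with windows of both proteins. None of 8 genes of liver, blood or connective tissue had a window.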

How the data were processed

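eCLIP of CPSF6 and RNPS1 was analysed from 8 of the 36 libraries (2 IP and 2 input libraries for each protein), and the lists of the other 7 proteins were used for comparison. Per the file headers, the authors' tables give for each window the IP and input read counts summed over replicates, the GC fraction, the log2 odds ratio of IP over input in the weaker and stronger replicate, and the largest q-value; all listed windows were called in 2 replicates, with a largest q-value of 0.200 in each list. Coordinates are on hg38, per the submitters' processing notes; no source used here names the window caller or the aligner. The CPSF6 and RNPS1 lists, as deposited, held 8891672 and 8815128 IP read counts and 1548461 and 982611 input read counts; reads outside listed windows were not used, so total depth is unknown.

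Windows were joined on their number with pandas 2.3.3 under Python 3.11.15; position, strand, feature type, gene name and GC fraction were identical for 100% of shared windows. Shares carry 95% Wilson intervals and medians order-statistic intervals (scipy 1.17.1). A window in several genes counted for each. Named genes were the 6 with the most shared windows, the largest differences between CPSF6-only and RNPS1-only windows over all and over coding windows, and the most windows of 1 protein with none of the other; named windows had the highest log2 odds ratio in the weaker replicate. Genes named within a list were chosen after their values were seen. Sequences are from RefSeq tables (GRCh38.p14). The members, gene lists and comparisons were chosen with earlier results of these data known. The join and the exon sizes were tested on simulated lists. Alternatives were a q-value limit of 0.05, at least 5 input reads, the 50000 most enriched windows, neighbours within 100 nt counted as shared, equal gene weights and coding windows alone.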

Additional observations from a re-analysis of the deposited data

How the results depend on the processing

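No paired analysis was possible because the tables hold reads summed over the replicates; for the same reason no replicate could be left out. Values are given as shared, CPSF6-only and RNPS1-only. With a q-value limit of 0.05 there were 44131, 33205 and 52301 windows, with 5 input reads 23329, 55067 and 10750, among the top 50000 of each list 13837, 36163 and 36163, and with windows within 100 nt counted as shared 141891, 43004 and 35841. The coding shares were 73.2%, 26.0% and 67.8% (q-value), 75.8%, 34.3% and 67.1% (top 50000), 57.5%, 13.9% and 62.2% (within 100 nt) and 61.1%, 26.3% and 55.7% (genes weighted equally). The deep intron shares were 4.63%, 45.4% and 3.35%; 6.14%, 42.7% and 4.13%; 8.38%, 60.1% and 6.27%; and 5.15%, 19.7% and 5.37% in the same order. Median GC was 45%, 41% and 50% (q-value), 42.9%, 42.4% and 48.6% (top 50000) and 46.2%, 44.9% and 52.2% (coding). The CPSF6-only set had the highest deep intron share and RNPS1-only the highest GC in each of these settings.

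The shared minus CPSF6-only enrichment difference of -0.04 was -0.23 with the q-value limit and reversed to 0.062 over coding windows; the cause was not tested. The RNPS1 difference was 0.35 with the q-value limit. Genes with both proteins numbered 4924 with 5 input reads; genes of CPSF6 alone 2398 there and 803 in the top 50000; genes of RNPS1 alone 1544 (q-value), 246 (5 input reads) and 1801 (top 50000).

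For exon size, alternatives were chosen after seeing the data. CPSF6-only shares in short and long exons were 3.94% and 38.9% (q-value), 14.7% and 59.6% (top 50000), 8.43% and 36.9% (largest listed window number as exon size), 3.40% and 27.4% (45 to 55% GC) and 1.69% and 10.8% (within 100 nt). RNPS1-only shares were 49.7% and 12.4%, 59.0% and 16.8%, 39.3% and 9.07%, 28.3% and 5.62%, and 14.8% and 1.31%. The direction was the same in these 5 settings; 71 of the 78 values moved beyond the interval of the value first given or, for counts, by over 1.5 times. Windows with few input reads, a median of 2 for RNPS1, limit the precision of each call.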
